A study of Mus musculus with 12 samples.

Results

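Matrix metalloproteinases and their tissue inhibitors were followed through glomerulus-enriched RNA of 2 mouse substrains before and after adriamycin (ADR). The 10 genes were chosen by symbol from the 26264 genes of the count tables: the proteases Mmp2, Mmp3, Mmp10, Mmp14 and Mmp15, the inhibitors Timp1, Timp2 and Timp3, and the related metalloproteinases Adamts4 and Adam15. Matrix metalloproteinases are zinc enzymes that are made as inactive precursors and cut collagens, laminins, proteoglycans and other proteins of the extracellular matrix and cell surface. Tissue inhibitors of metalloproteinases (TIMPs) bind the active site and hold this activity in check, and the pro-form of Mmp2 is activated at the cell surface by the membrane-bound Mmp14 with the help of Timp2. In the glomerulus the matrix they act on includes the basement membrane of the filtration barrier and the mesangial matrix.

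The groups were male mice aged 8 weeks, either BALB/cByJcl (named ByJcl below) or BALB/cAjcl (named Ajcl), and were untreated (baseline) or taken on Day 5 after a single intravenous dose of ADR of 10 mg/kg, with 3 libraries in each of the 4 groups. Glomeruli were collected by perfusion with magnetic beads, so each library is a mixture of glomerular cells with some tubular and other material. RNA was poly(A)-selected, and the values are counts per gene. The study's methods name a library of reduced glomerular purity. It is Ajcl Day 5 replicate 1, which was left out of the fits, so comparisons with the Ajcl Day 5 group rest on 2 libraries, and its values are printed beside the others.

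Total counts per library lay between 42198416 and 54687045, and 17002 genes passed the filter on low counts. Podocyte markers defined the tissue, with all 8 listed markers tested and a summed level of 14364 to 21032 CPM (counts scaled to library size) at baseline. They were lower at Day 5 in ByJcl, where the sum lay between 7132 and 10679 CPM and all 8 markers were called lower than at baseline. Since these are bulk libraries, fewer cells of a type and less RNA per cell cannot be told apart. Baseline and Day 5 counts were deposited in separate tables, so a difference in how the tables were made and the response to ADR cannot be told apart. Levels below are CPM after scaling by the trimmed mean of M values (TMM), log2 fold changes come from 1 edgeR quasi-likelihood fit over the 4 groups, and a call is an adjusted p below 0.05 over all tested genes.

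On GRCm39, Mmp3 and Mmp10 lie on the same strand of chromosome 9, at chr9:7445822-7455975 and chr9:7502353-7510241. Mmp2 (chr8:93553902-93580049) and Mmp15 (chr8:96078895-96101708) share chromosome 8, and Mmp14 lies at chr14:54668878-54682821. Timp1 is X-linked (chrX:20736316-20740976) and sits inside Syn1 on the opposite strand, with 0 shared exon bases. Timp2 (chr11:118191887-118246566) shares 332 exon bases with Cep295nl on its own strand, and Timp3 (chr10:86136236-86185371) shares 1734 with Syn3 on the opposite strand. Adamts4 lies at chr1:171077986-171089841 and Adam15 at chr3:89245846-89257511. The libraries were strand-specific, but the strand setting of the counting is not given in the sources used here, so reads in the shared exon bases are of uncertain origin. The exons of Mmp3 and Mmp10 shared no run longer than 104 bases.

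The promoters of Mmp3, Mmp10, Timp1 and Adam15 are shown because Mmp10 rose after ADR in ByJcl while its neighbour Mmp3 did not pass the test, and because Timp1 and Adam15 rose as well. Each run is the 250 bases before the start site from RefSeq (GRCm38.p6), read 5′ to 3′ on the gene's strand, with capitals for matches on either strand to the AP-1 motif TGANTCA, the TATA motif TATAAA or the GC box GGGCGG. The positions are chr9:7445572-7445821 (plus strand) for Mmp3, chr9:7502092-7502341 (plus) for Mmp10, chrX:20869916-20870165 (plus) for Timp1 and chr3:89350029-89350278 (minus) for Adam15.
Mmp3: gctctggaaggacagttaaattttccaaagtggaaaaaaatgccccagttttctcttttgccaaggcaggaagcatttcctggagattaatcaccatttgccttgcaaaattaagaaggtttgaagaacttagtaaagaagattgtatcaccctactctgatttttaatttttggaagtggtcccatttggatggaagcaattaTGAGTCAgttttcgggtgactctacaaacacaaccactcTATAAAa
Mmp10: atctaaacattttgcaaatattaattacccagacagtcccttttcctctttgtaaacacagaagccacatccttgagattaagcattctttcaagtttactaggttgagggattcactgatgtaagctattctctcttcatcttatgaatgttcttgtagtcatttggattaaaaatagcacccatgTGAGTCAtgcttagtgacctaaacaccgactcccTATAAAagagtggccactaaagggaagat
Timp1: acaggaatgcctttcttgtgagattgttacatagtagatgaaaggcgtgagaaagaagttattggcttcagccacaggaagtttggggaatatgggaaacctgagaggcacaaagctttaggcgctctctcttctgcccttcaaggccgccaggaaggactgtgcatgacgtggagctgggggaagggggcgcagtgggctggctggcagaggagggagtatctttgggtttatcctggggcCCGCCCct
Adam15: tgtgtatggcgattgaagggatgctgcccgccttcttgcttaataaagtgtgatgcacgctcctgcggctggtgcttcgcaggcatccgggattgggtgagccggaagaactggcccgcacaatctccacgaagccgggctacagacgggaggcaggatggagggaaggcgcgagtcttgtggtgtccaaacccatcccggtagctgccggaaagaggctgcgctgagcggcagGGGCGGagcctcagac
Mmp3 and Mmp10 each held 1 AP-1 match, TGAGTCA, at 46 and 63 bases before the start, and 1 TATA match, at 7 and 29 bases before it. The other 6 promoters in the table, those of Mmp14, Mmp15, Timp1, Timp2, Timp3 and Adam15, held GC boxes and neither of the other motifs. Among all 32851 promoters of the same length, 6.75% held the AP-1 motif, 12.37% the TATA motif and 32.74% the GC box. Mmp2 and Adamts4 were not in the promoter table. These are matches of letters and describe no binding.

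Per kb of exon Timp3 and Timp2 stood far above the proteases in every group, whereas Timp1 was among the low genes. Timp3, which binds to the matrix itself, was highest, with group means of 371 to 517 CPM per kb, followed by Timp2 with 140 to 216 CPM per kb. Mmp2, Mmp14 and Adam15 came next, between 13.8 and 49.3 CPM per kb, and Mmp2 and Mmp14 could not be ordered, since their libraries overlapped in both Day 5 groups and Mmp14 ranked above Mmp2 in all 4 groups when the longest transcript was used as the length. Mmp15 followed at 1.63 to 3.04 CPM per kb. Mmp3, Timp1, Adamts4 and Mmp10 formed the low end in each group, and at Day 5 in ByJcl the neighbours from Mmp15 down through Mmp10 (2.39 CPM per kb), Timp1 (2.03), Mmp3 (1.42) and Adamts4 (0.66) overlapped between libraries.

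**Figure D1:**
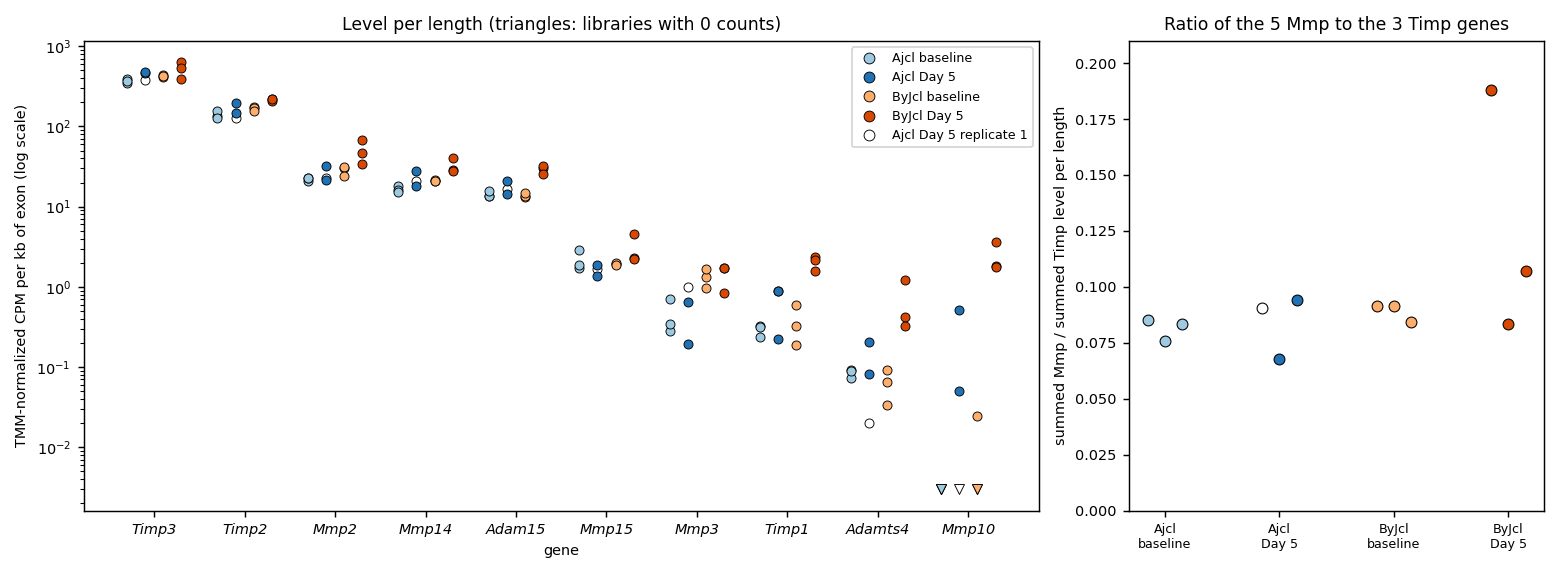
Left, TMM-normalized CPM per kb of exon on a log scale, 1 point per library and 4 groups per gene, with triangles for 0 counts; right, the ratio of the summed level of the 5 Mmp genes to that of the 3 Timp genes. Timp3 and Timp2 sit above all other genes in every library, and 1 ByJcl Day 5 library stands at a ratio of 0.188 while the others lie between 0.0676 and 0.107.

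Day 5 against baseline in ByJcl asked how the genes responded to ADR in this substrain. Mmp10, Adamts4, Timp1, Adam15, Mmp2 and Mmp14 rose, so that 6 of the 10 genes were called higher and 0 lower, against 5.75% called higher among all tested genes. The rises ran from 1.53-fold for Mmp14 to 10.2-fold for Adamts4, with Mmp10 further up from almost no reads. Mmp10 passed the filter on low counts only through the ByJcl Day 5 libraries and had to differ. Without it 5 of the other 9 were called. These 9 were also chosen with earlier results of these data known. The shares over all tested genes, here and below, are therefore a scale for the counts and no test of enrichment. Of these 9, every Day 5 library lay above every baseline library in 7, against 17.3% of all tested genes. The 9 log2 fold changes were positive, with a median of 0.65 beside 0.01 over all tested genes. Without Mmp10 the count fell to 4 of 9 with all 12 libraries fitted, where Mmp2 had an adjusted p of 0.0519 (edgeR) and 4.41% of tested genes were called higher. DESeq2 called 6 of the 9, with Timp2 added, and 8.95% of tested genes higher.

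**Figure D2:**
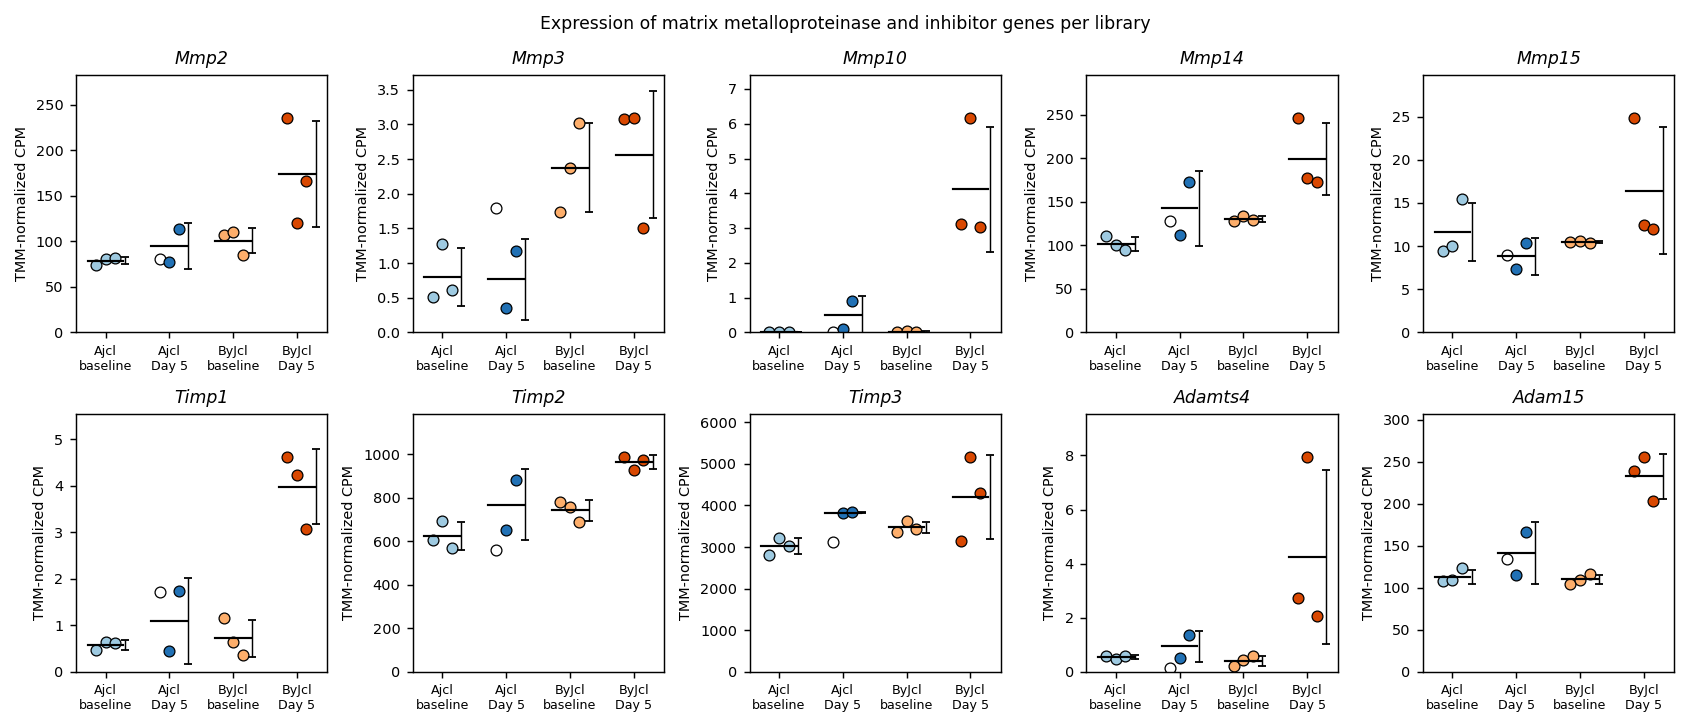
TMM-normalized CPM of each gene (y axes from 0) in every library of the 4 groups (x axis), with the group mean as a line, the SD as a bar, and Ajcl Day 5 replicate 1, which enters neither, as an open point on the 12-library scale. The ByJcl Day 5 points lie above the ByJcl baseline points in 8 of the 10 panels.

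Mmp10 encodes stromelysin-2, a secreted protease that cuts many matrix proteins and activates other metalloproteinases. It had 141, 269 and 140 reads in the 3 ByJcl Day 5 libraries and 0, 2 and 0 at ByJcl baseline. In Ajcl it had 0 reads in all 3 baseline libraries and 0, 4 and 44 in Day 5 replicates 1, 2 and 3. The gene was thus near or at 0 before ADR in both substrains, and the ByJcl Day 5 libraries lay above all others. In ByJcl the Day 5 mean was 4.11 ± 1.80 CPM (SD, n = 3). The ratio of the summed counts, 550 against 2, was 301-fold with an exact binomial 95% interval of 82.9 to 2490. This interval treats the reads as independent and covers no spread between libraries. Both mates of a pair appear to have been counted, so it is also too narrow for the counting error. The edgeR adjusted p was 0.00362, which adds little, since the gene was tested only because of its reads in these Day 5 libraries. In Ajcl the mean of the 2 fitted Day 5 libraries, 0.49 CPM, was at least 7.55-fold higher than a floor of 3 counts per baseline library, but replicate 2 lay barely above that floor, replicate 1 had 0 reads and the adjusted p was 0.137 (edgeR). DESeq2 called this rise (adjusted p = 0.000326), and so did edgeR without replicate 2 (adjusted p = 0.0213), where a single library carries the group.

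Mmp3 encodes stromelysin-1, the close relative and chromosomal neighbour of Mmp10. It stood at 0.505, 1.28 and 0.618 CPM at Ajcl baseline and at 1.80, 0.35 and 1.18 CPM in Ajcl Day 5 replicates 1 to 3. In ByJcl it stood at 1.74, 2.37 and 3.02 CPM at baseline and at 3.08, 3.10 and 1.51 CPM at Day 5. The ByJcl libraries were the higher ones at either time, except that Ajcl Day 5 replicate 1 exceeded ByJcl Day 5 replicate 3, and within ByJcl the times overlapped. Its log2 fold change at Day 5 in ByJcl was 0.11 ± 0.47 (SE), with a 95% interval of -0.94 to 1.15 and an adjusted p of 0.913 (edgeR). The direction in Ajcl was not settled, since a log2 fold change of -0.07 became 0.46 with replicate 1 included.

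Mmp2, or gelatinase A, degrades denatured collagen and type IV collagen, the main collagen of basement membranes. Its CPM was 107, 110 and 84.7 at ByJcl baseline and 236, 120 and 166 at Day 5. At Ajcl baseline it was 74.3, 80.5 and 81.6 CPM, and in Ajcl Day 5 replicates 1 to 3 it was 80.4, 76.8 and 113 CPM. All 3 ByJcl Day 5 libraries lay above the rest, replicate 1 furthest. The rise in ByJcl was 1.73-fold (log2 0.79 ± 0.22, edgeR adjusted p = 0.0443). It was called in 3 of the 11 fits with 1 library left out, with an adjusted p between 0.0245 and 0.136.

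Mmp14, a membrane-anchored collagenase and the activator of pro-Mmp2, ran at 128, 134 and 129 CPM at ByJcl baseline and 247, 178 and 173 CPM at Day 5. In Ajcl it ran at 111, 100 and 94.9 CPM at baseline and 128, 112 and 173 CPM in Day 5 replicates 1 to 3. The times did not overlap in either substrain, though Ajcl Day 5 replicate 2 exceeded the highest baseline library by little, and at Day 5 the lowest ByJcl and the highest Ajcl library were equal after rounding. The rise in ByJcl was 1.53-fold (log2 0.61 ± 0.17, edgeR adjusted p = 0.043) and was called in 4 of 11 fits with a library left out. In Ajcl the fitted change was 1.40-fold with an adjusted p of 0.394 (edgeR).

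Mmp15, a further membrane-anchored protease, varied little before ADR in ByJcl, with 10.5, 10.6 and 10.3 CPM. At Day 5 it was 24.9, 12.4 and 12.0 CPM. In Ajcl it was 9.42, 9.98 and 15.5 CPM at baseline and 8.97, 7.30 and 10.3 CPM at Day 5. The ByJcl Day 5 libraries lay above their baseline, 1 of them far above the other pair, and the Ajcl times overlapped. The ByJcl difference was not called (log2 0.65 ± 0.29, edgeR adjusted p = 0.178).

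Timp1, a secreted inhibitor that many injured tissues induce, was the lowest of the 3 inhibitors and the one with the largest fold. It stood at 1.15, 0.635 and 0.368 CPM at ByJcl baseline and at 4.62, 4.23 and 3.07 CPM at Day 5. At Ajcl baseline it stood at 0.459, 0.64 and 0.618 CPM and in Day 5 replicates 1 to 3 at 1.72, 0.437 and 1.74 CPM. Every ByJcl Day 5 library lay above every other library, and the Ajcl Day 5 libraries were split, 2 above and 1 below their baseline. The rise in ByJcl was 5.55-fold (log2 2.47 ± 0.51, edgeR adjusted p = 0.0134) and was called in 10 of 11 fits with a library left out, the exception being ByJcl baseline replicate 2 (adjusted p = 0.0601). In Ajcl the adjusted p was 0.667 (edgeR).

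Timp2 inhibits metalloproteinases and takes part in the activation of pro-Mmp2 by Mmp14. It read 782, 756 and 688 CPM at ByJcl baseline and 989, 929 and 974 CPM at Day 5, and 608, 694 and 570 CPM at Ajcl baseline and 561, 653 and 884 CPM in Day 5 replicates 1 to 3. The ByJcl times did not overlap, whereas those of Ajcl did. The ByJcl difference of 1.30-fold was not called by edgeR (adjusted p = 0.0905) and was called by DESeq2 (adjusted p = 0.0246).

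Timp3, the matrix-bound inhibitor, was the most abundant of the 10 genes, with 3368, 3621 and 3434 CPM at ByJcl baseline and 3151, 5171 and 4306 CPM at Day 5. In Ajcl it had 2815, 3207 and 3035 CPM at baseline and 3125, 3813 and 3833 CPM in Day 5 replicates 1 to 3. ByJcl Day 5 replicate 1, highest of its group in Mmp2, Mmp14 and Mmp15, was here the lowest and fell below its baseline. The ByJcl log2 difference was 0.28, with a 95% interval of -0.09 to 0.64 and an adjusted p of 0.318 (edgeR).

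Adamts4 is an aggrecanase that cleaves proteoglycans such as versican. It lay at 0.217, 0.423 and 0.589 CPM at ByJcl baseline and at 2.74, 7.95 and 2.07 CPM at Day 5. In Ajcl it lay at 0.597, 0.469 and 0.577 CPM at baseline and at 0.129, 0.524 and 1.34 CPM in Day 5 replicates 1 to 3. ByJcl Day 5 was above all other libraries, with replicate 2 highest, and Ajcl Day 5 spread on either side of its baseline. The rise in ByJcl was 10.2-fold (log2 3.36 ± 0.59, edgeR adjusted p = 0.00643) and was called with each library left out in turn, though without ByJcl Day 5 replicate 2 the log2 value was 2.54.

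Adam15, a membrane-anchored disintegrin and metalloproteinase, had the smallest adjusted p of the 10 genes. Its CPM was 105, 109 and 116 at ByJcl baseline and 239, 256 and 203 at Day 5. It was 108, 109 and 123 CPM at Ajcl baseline and 134, 115 and 167 CPM in Ajcl Day 5 replicates 1 to 3. The baselines overlapped, and the ByJcl Day 5 libraries stood above all others without overlap. The rise in ByJcl was 2.12-fold (log2 1.08 ± 0.14, edgeR adjusted p = 0.00185) and was called with each library left out in turn. In Ajcl the fitted log2 change was 0.32 with a 95% interval of -0.02 to 0.66 and an adjusted p of 0.555 (edgeR).

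Day 5 against baseline in Ajcl gave 0 calls among the 10 genes by edgeR, against 0.312% called among all tested genes. At an unadjusted p below 0.05 there were 2, Mmp10 and Mmp14, against 9.8% of all tested genes, and DESeq2 called 1, Mmp10, with 1.77% of tested genes called. The libraries did not overlap for Mmp10, Mmp14 and Timp3, each higher at Day 5, against 13.6% of all tested genes. With replicate 1 included this held for Mmp14 alone, and no share over all tested genes was computed. The median log2 fold change over the 10 genes was 0.33 beside -0.01 over all tested genes, with 8 of 10 positive.

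ByJcl against Ajcl at Day 5 asked whether the substrains differed after ADR. Every gene was higher on average in ByJcl, with folds from 1.10 for Timp3 to 8.29 for Mmp10, but none was called by edgeR, where 0.165% of all tested genes were called. Leaving aside Mmp10, which was tested only because of its ByJcl Day 5 reads, 8 of the other 9 had an unadjusted p below 0.05, all except Timp3, against 14.0% of all tested genes. In these 8 the 3 ByJcl libraries lay above the 2 Ajcl libraries without overlap, against 16.9% of all tested genes. With Ajcl replicate 1 included the count was 6, for which no share over all tested genes was computed. The 16.9% holds for 2 Ajcl libraries. The median log2 fold change of the 9 was 0.88, beside 0.00 over all tested genes.

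The largest fitted folds after Mmp10 were those of Adamts4 (4.55-fold, log2 2.18 ± 0.64), Timp1 (3.63-fold, log2 1.86 ± 0.57) and Mmp3 (3.34-fold, log2 1.74 ± 0.58). Their size and order rest on single libraries. Without Ajcl replicate 3 the log2 values were 5.52 for Mmp10, 3.18 for Timp1, 3.02 for Adamts4 and 2.87 for Mmp3, and without Ajcl replicate 2 they were 2.21, 1.19, 1.68 and 1.13. Without ByJcl replicate 2 that of Adamts4 was 1.37. Adam15 had a smaller difference with a smaller error, 1.65-fold or log2 0.72 ± 0.16, and the lowest adjusted p, 0.109 (edgeR). DESeq2, in which 3.49% of tested genes were called, called 4 of the 9 other than Mmp10: Adam15 (adjusted p = 0.00416), Adamts4 (0.0184), Mmp2 (0.0225) and Timp1 (0.031). It also called Mmp10 (0.0119). Leaving out Ajcl Day 5 replicate 3, the library with the higher value of the pair in all 10 genes, brought the edgeR adjusted p of Adam15 to 0.0263 and left 1 Ajcl library in the group.

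**Figure D3:**
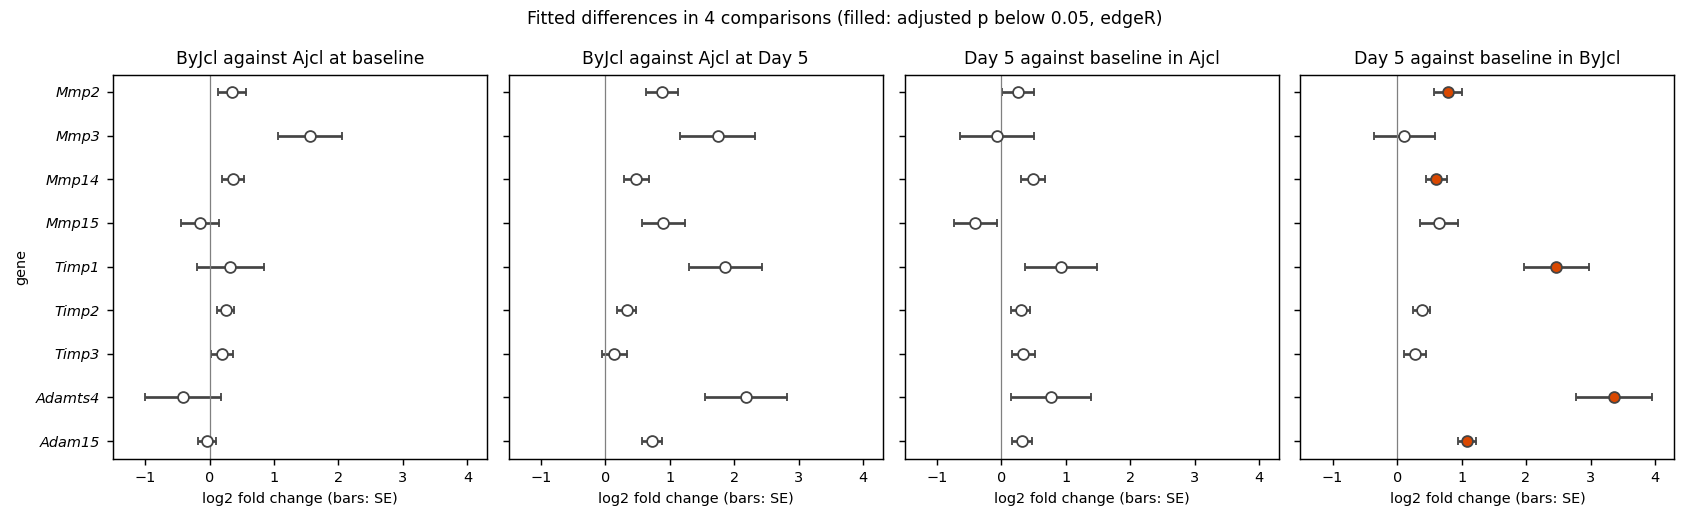
Log2 fold change (x axis, bars show the SE) of 9 genes (y axis) in 4 comparisons, with filled points for an adjusted p below 0.05 in edgeR; Mmp10 is left out because groups at or near 0 reads set its fold. Filled points appear only for Day 5 against baseline in ByJcl, from 0.61 for Mmp14 to 3.36 for Adamts4.

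Before ADR none of these genes passed the test between the substrains. Among the 10, 0 were called by edgeR or by DESeq2, against 0.159% and 0.631% of all tested genes, and 1 had an unadjusted p below 0.05, against 8.34%. That gene was Mmp3, 2.96-fold higher in ByJcl (log2 1.56 ± 0.50, edgeR adjusted p = 0.536). Mmp2, Mmp3, Mmp14 and Timp3 were higher in all ByJcl than in all Ajcl libraries, against 9.19% of all tested genes, at 1.28-fold for Mmp2 and Mmp14 and 1.15-fold for Timp3. On the 12-library scale Mmp2 overlapped, which left 3, and no share over all tested genes was computed on that scale. Adam15 differed by a log2 of -0.04, with a 95% interval of -0.35 to 0.26.

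The difference between the substrains' responses was tested by the interaction term. None of the 10 genes was called, as was the case for all tested genes in edgeR (0.0%), and DESeq2 called 22 genes (0.143%) and none of these 10. At an unadjusted p below 0.05 there were 3, against 8.02% of all tested genes. Adamts4 had a log2 difference between responses of 2.59 ± 0.86, Mmp15 of 1.06 ± 0.44 and Adam15 of 0.76 ± 0.21, each with an adjusted p of 0.62 (edgeR). A larger rise in ByJcl than in Ajcl was therefore not shown for any single gene, and the 95% intervals of the difference ran from 0.30 to 1.23 for Adam15 and from -0.43 to 0.68 for Mmp14.

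The summed level of the 5 Mmp genes per length, divided by that of the 3 Timp genes, was 0.0814 ± 0.00499 at Ajcl baseline and 0.0891 ± 0.00419 at ByJcl baseline (SD, n = 3 each). At Day 5 it was 0.0676 and 0.0942 in the fitted Ajcl libraries and 0.188, 0.0833 and 0.107 in ByJcl. The ByJcl times overlapped, and the high mean of 0.126 rests on replicate 1, where Mmp2, Mmp14 and Mmp15 were highest and Timp3 lowest. Timp1 made up 0.209 to 0.387% of the summed inhibitors at Day 5 in ByJcl, against 0.0327 to 0.0997% at baseline, so that Timp3, at 63.3 to 75.1%, remained the main inhibitor transcript.

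Across the 11 fitted libraries the genes moved together to different degrees, given here as a description in which the group differences are part of each correlation. Mmp10 and Adam15 had a Pearson r of 0.971 on the log2 scale, Adamts4 and Adam15 of 0.958, Timp1 and Adam15 of 0.926, and Mmp2 and Mmp14 of 0.913. Timp3 had 0.288 with Mmp2 and -0.137 with Mmp15, and Mmp3 had at most 0.66 with any other of the 10 genes.

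Markers of other cells moved along with these results. At Day 5 in ByJcl the smooth muscle sum was above baseline, at 529 to 654 against 319 to 398 CPM. Its 5 markers were positive, 1 of them called higher, with a median log2 change of 0.63. The parietal epithelium sum was also above baseline, at 410 to 831 against 230 to 296 CPM, with 2 of 5 called higher. Its median log2 change was only 0.08, with 4 of 5 positive. Mmp2, Mmp14 and the other called genes were above baseline as well. The fibroblast sum was lower, at 153 to 242 against 571 to 644 CPM, with 1 of 5 tested markers called lower. The glomerular endothelium sum was lower too, at 4149 to 6290 against 6868 to 8048 CPM, with 1 of 6 called lower. Of the 6 endothelium markers 2 were positive, and the median log2 change was -0.26. Podocyte markers were lower on average in ByJcl than in Ajcl at Day 5 in 8 of 8 cases, with a median log2 difference of -0.66, 0 called and overlapping sums (7132 to 10679 against 10278 to 14676 CPM), and over time in Ajcl in 8 of 8, with a median of -0.40 and 0 called. Against Ajcl at Day 5, ByJcl also had the higher smooth muscle sum (Ajcl 361 to 394 CPM, 1 of 5 called higher), without overlap. The parietal epithelium sum was higher in the same way (Ajcl 244 to 305 CPM, 0 of 5 called). Only 2 of its 5 markers were higher, with a median log2 difference of -0.17. The fibroblast sum was lower in ByJcl, without overlap (Ajcl 337 to 369 CPM, 0 of 5 called). Of its 5 tested markers 2 were higher, with a median log2 difference of -0.31. The mesangium sum overlapped between times (2319 to 3406 against 2346 to 2956 CPM, 0 of 6 called). The macrophage and monocyte sum was above that of Ajcl in ByJcl at both times, 67.4 to 112 against 38.1 to 61.2 CPM at baseline and 69.2 to 126 against 31.6 to 65.4 CPM at Day 5, with 0 of 6 called in either. Between times within ByJcl it overlapped, with 1 of 6 called higher but only 2 of 6 positive and a median log2 change of -0.48. The neutrophil sum overlapped at baseline and was above that of Ajcl at Day 5, at 8.78 to 16.2 against 1.49 to 6.45 CPM. The proximal tubule sum overlapped in all 4 comparisons, although all 8 markers were lower on average in ByJcl than in Ajcl at baseline (median log2 difference -0.75) and at Day 5 (-0.92), with 0 called. The thick limb and distal tubule sum was lower in ByJcl than in Ajcl at Day 5, at 95.5 to 507 against 811 to 1081 CPM, with 0 of 5 called. At baseline these sums overlapped, at 136 to 537 against 526 to 1588 CPM, also with 0 of 5 called. The median log2 difference was much the same, -1.34 at baseline and -1.35 at Day 5, with 0 of 5 markers higher at either time. No listed marker was at 0 in every library. The part of these cells in the results was not tested.

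A wider list of 75 metalloproteinase-related genes, made up of other matrix metalloproteinases, other inhibitors and regulators, and the ADAMTS, ADAM and astacin families, gave 62 tested genes. By edgeR, Day 5 against baseline in ByJcl called 8 of them, 5 higher and 3 lower, against 5.75% and 4.83% of all tested genes, and the other comparisons called 0. DESeq2 also called Adamts9 between substrains at Day 5 (adjusted p = 0.016). Of the 24 other ADAMTS family genes 22 were tested, with 4 called higher and 2 lower in ByJcl by edgeR and 5 higher and 5 lower by DESeq2. Over time in ByJcl, DESeq2 called 8.95% of all tested genes higher, and 2694 of 16999 in both directions together. The same background holds for the DESeq2 family counts in ByJcl given below. Adamts9, which cleaves versican and aggrecan, went from 24.2, 24.1 and 25.4 CPM to 77.6, 191 and 91.7 CPM (log2 2.29 ± 0.32, edgeR adjusted p = 0.00285). Adamts8 went from 0.217, 0.0423 and 0.258 CPM to 1.97, 3.31 and 1.17 CPM (log2 3.61 ± 0.59, adjusted p = 0.00486). Adamts16 moved the other way, from 62.4, 51.5 and 40.4 CPM to 21.8, 9.15 and 11.6 CPM (log2 -1.86 ± 0.29, adjusted p = 0.00403). None of these 3 overlapped between the times in ByJcl.

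The smaller changes were those of Adamtsl4 (log2 0.94), Adamts1, a versican-cleaving protease (0.98), and Sdc4, a cell-surface proteoglycan listed among the regulators (0.52), all higher, and of Adamts10 (-0.50) and Adam33 (-0.86), lower. Adamts10, Sdc4 and Adam33 were not called with all 12 libraries. Of the 18 other matrix metalloproteinases 10 were tested and 0 were called in any comparison by edgeR, and DESeq2 called 1, Mmp8, a neutrophil collagenase (log2 2.16 ± 0.77 at Day 5 in ByJcl, edgeR adjusted p = 0.0964). In ByJcl the 12 other ADAM family genes gave 0 higher and 1 lower by edgeR (0 and 2 by DESeq2), the 14 tested inhibitors and regulators 1 higher and 0 lower (1 and 1 by DESeq2), and the 4 tested astacin genes 0 in either direction (0 and 1 by DESeq2). In Ajcl the same 8 genes had log2 changes from -1.11 for Adamts16 to 2.26 for Adamts8. None was called by edgeR, and DESeq2 called Adamtsl4 (log2 0.99, adjusted p = 0.00744) and Adamts8 (0.0189) higher and Adamts16 (0.0307) lower.

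**Figure D4:**
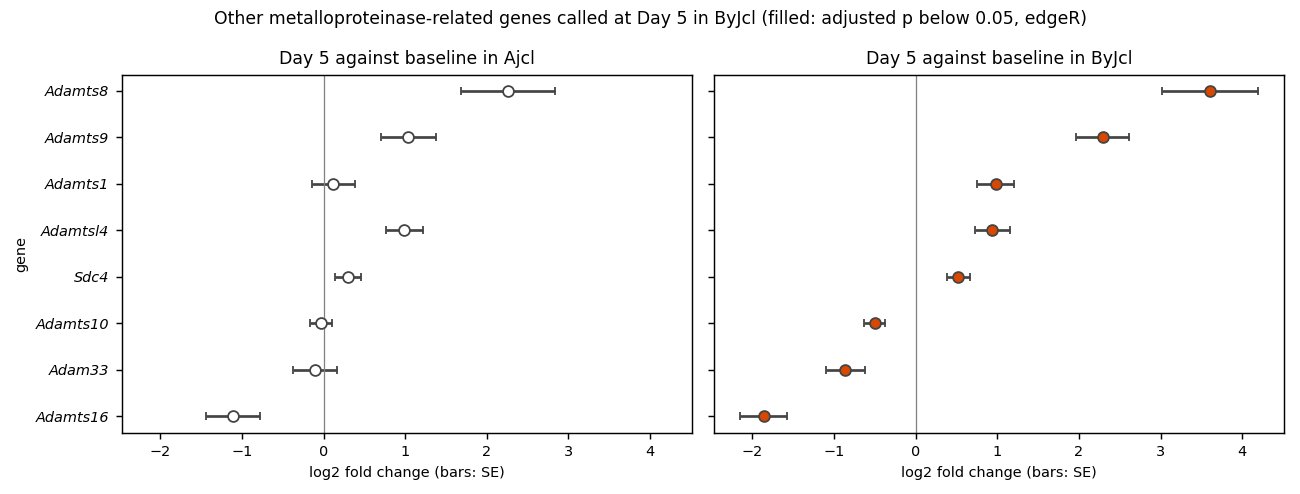
Log2 fold change at Day 5 (x axis, bars show the SE) of the 8 called genes of the wider list (y axis) in Ajcl and in ByJcl, with filled points for an adjusted p below 0.05 in edgeR. The Ajcl points are open throughout and range from -1.11 for Adamts16 to 2.26 for Adamts8.

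For each gene the 2 tested genes with the highest Pearson r of log2 CPM over the 11 libraries were named. Ly6a, a surface antigen that interferon induces, was among those nearest to Mmp10 (r = 0.99), at 114 ± 16.9 CPM at ByJcl baseline and 486 ± 100 CPM at Day 5 (SD, n = 3 each), and Gabra2 was the other (r = 0.99), on very few reads. Adam15 was nearest to Col5a3, a type V collagen chain (r = 0.985), which had 3.46 ± 0.411 and 63.6 ± 13.1 CPM in the same groups. Next came Abcb5 (0.984), also on very few reads, with a mean of 0.232 CPM at ByJcl Day 5. Mmp14 was nearest to Tap2 (0.986) and H2-Q1 (0.985), of antigen presentation, and Timp2 to the matrix glycoprotein gene Emilin1 (0.977) and to Ccdc102a (0.973). Adamts4 was nearest to Sdhaf1 (0.98) and Tubb6 (0.974), Timp1 to Nppb (0.975) and Ptprn (0.964), and Timp3 to Tshz1 (0.981) and Nsf (0.945). Nppb too had very few reads, with a mean of 0.237 CPM at ByJcl Day 5. The nearest were Shisa5 (0.961) and Map3k11 (0.958) for Mmp2, Nelfe (0.95) and Vcp (0.94) for Mmp15, and Steap4 (0.947) and Hid1 (0.937) for Mmp3.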

How the data were processed

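RNA of bead-isolated glomeruli from 12 mice, 3 libraries in each of 4 groups, was measured by RNA-seq. The authors deposited raw counts per gene in 1 table for baseline and 1 for Day 5; the submitters' processing notes name FastQC, Trimmomatic, STAR, featureCounts and GRCm39, and the annotation and strand setting are not given in the sources used here. Of the counts from 1 to 49, 77.08 to 82.85% per library were even, so both mates of a pair appear to have been counted, and counting errors based on reads are then too small. Groups came from the sample labels, and no batch was entered in the main fit.

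The tables were joined by gene and fitted with edgeR 4.0.16 (filterByExpr, TMM, quasi-likelihood F test, 1 coefficient per group, 11 libraries, residual df 7) in R 4.3.3, with Benjamini-Hochberg adjustment over the 17002 tested genes. The SE is the log2 fold change divided by the square root of F, and 95% intervals use the t distribution with the total degrees of freedom of the test (11.1, and 9.1 for Mmp10). DESeq2 1.42.0, other size factors, other filters, all 12 libraries, a replicate block, separate fits, halved counts and leaving out each library were tried. The script was tested on simulated counts. Levels per length use exon unions of GENCODE vM39. P-values weigh each difference against the spread between libraries. That spread was estimated over the 4 groups together and in part shared between genes.

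The 10 genes, the wider protease lists and the marker lists were chosen with earlier results of these data known. From the wider lists, genes called in at least 1 comparison were named, up to 20, and for each of the 10 genes the 2 with the closest pattern. Mmp8 was named after its values were seen. Pairs of libraries differed by more than sampling noise (lowest chi-square per degree of freedom 47.1).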

Additional observations from a re-analysis of the deposited data

Results flagged for a closer look

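In Ajcl Day 5 replicate 1, the library left out of the fits, 4 of the 10 genes lay above all 3 Ajcl baseline libraries on the 12-library scale: Mmp3 at 1.80 CPM against 0.508 to 1.27, Mmp14 at 128 CPM against 98.4 to 112, Timp1 at 1.72 CPM against 0.462 to 0.641 and Adam15 at 134 CPM against 108 to 128. They are listed because this library enters none of the main comparisons. In the same library Mmp10 had 0 reads, and Mmp15, Timp2 and Adamts4 were below all 3 baseline libraries, at 8.97, 561 and 0.129 CPM.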

How the results depend on the processing

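Of 938 values of the 10 genes under an alternative, 881 kept their direction and their side of the threshold, 19 lost a call, 10 gained one and 28 changed sign, none of the 28 being a called change. In ByJcl between 3 and 6 of the 10 genes were called at Day 5 with a library left out, 3 without ByJcl baseline replicate 2. The main fits called 27 genes at baseline, 28 between substrains at Day 5, 53 over time in Ajcl, 1800 in ByJcl and 0 for the interaction. DESeq2 called 101, 535, 301, 2694 and 22, and 5 of the 10 genes between substrains at Day 5 and 1 over time in Ajcl. With all 12 libraries 72 genes were called between substrains at Day 5 and 1197 over time in ByJcl. With no filter these were 56 between substrains at Day 5 and 99 over time in Ajcl, and fits on only the groups compared, which give no interaction, called 15 at baseline, 6 between substrains at Day 5 and 33 over time in Ajcl. Entering the replicate number as a blocking factor gave 26 calls over time in Ajcl, and called 5 of the 10 genes in ByJcl, with Mmp2 lost (adjusted p = 0.0588); same-numbered libraries come from different animals, their deviations correlated by -0.389 to 0.527 over 15 pairs, and only 5 pairs exceeded 0.1. With 1 library left out, the counts ran from 12 to 29 at baseline, from 9 (without Ajcl Day 5 replicate 2) to 218 (without replicate 3) between substrains at Day 5, from 11 (without replicate 3) to 180 (without replicate 2) over time in Ajcl, from 680 (without ByJcl Day 5 replicate 2) to 2056 over time in ByJcl and from 0 to 5 for the interaction; of the 10 genes 0 to 1 were called between substrains at Day 5 and over time in Ajcl. Leaving out an Ajcl Day 5 library leaves 1, which is assumed to vary like the other groups.

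The sign changes were in log2 differences that were not called. With all 12 libraries Mmp3 had 0.46 over time in Ajcl and -0.33 for the interaction, and Timp3 had 0.05 for the interaction. With 1 library left out the ranges at baseline were 0.00 to 3.16 for Mmp10, -0.32 to 0.11 for Mmp15, -0.20 to 0.63 for Timp1 and -0.11 to 0.02 for Adam15, and between substrains at Day 5 -0.04 to 0.30 for Timp3. Over time in Ajcl they were -0.05 to 0.50 for Mmp2, -1.20 to 0.54 for Mmp3, -0.40 to 1.58 for Timp1 and -0.08 to 1.27 for Adamts4, and in ByJcl -0.07 to 0.40 for Mmp3. For the interaction they were -0.42 to 1.32 for Mmp3, -0.40 to 3.05 for Mmp10, -0.13 to 0.50 for Mmp14, -0.10 to 0.33 for Timp2 and -0.24 to 0.12 for Timp3. The cause was not tested. Fewer than 100 reads in most libraries limit Mmp10, Timp1, Adamts4 and Mmp3.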
